A study of Mus musculus with 22 samples.

Results

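DNA replication genes are described here as 38 genes for entry into S phase and for the replication fork, chosen by gene symbol from a table of counts for 32858 genes. All 38 were found, and all 38 were among the 17131 genes with enough counts to be tested. Kidney RNA came from 22 male C57Bl6/J mice aged 8 to 10 weeks, with 1 library per mouse and between 26471762 and 40510754 counts per library. The vehicle group held 5 mice, which received the solvents alone. The KW6002 group held 6 mice given KW6002 (istradefylline, an adenosine receptor antagonist) at 3 mg/kg daily from day -5 to day 7. The cisplatin group held 5 mice injected with cisplatin at 3 mg/kg on 6 days, and the last group (Cisplatine + KW6002, here called co-treated) held 6 mice given both. Tissue was collected 72 hours after the last cisplatin injection. The study asked whether KW6002 protects the kidney from cisplatin, a platinum drug that crosslinks DNA and damages the tubules.

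Before a cell copies its DNA, the origin recognition complex, Cdc6 and Cdt1 load a ring of Mcm2 to Mcm7 at origins, a step called licensing. Cdc45 and the GINS complex turn that ring into a working helicase, primase and DNA polymerases copy both strands behind it, and the Pcna clamp, loaded by replication factor C, keeps the polymerases on the template. Transcription of many of these genes is driven by E2F factors once cyclin-dependent kinases have inactivated the RB protein. Most cells of the adult kidney are at rest.

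The RefSeq promoter table (build GRCm38.p6) held 29 of the 38 genes, in windows of equal length that lie mostly upstream of the transcription start. An E2F motif (TTTCCCGC, TTTGGCGC, TTTCGCGC or TTTGCCGC on either strand) was found for 13 of the 29 genes (44.8%). Some genes had several windows, and 13 of the 33 member windows held a match, against 2.26% of all 32851 windows. The genes with a match were Cdc6, Cdt1, Gins3, Lig1, Mcm3, Mcm5, Mcm6, Mcm7, Orc1, Pola1, Pold1, Rfc3 and Uhrf1. CCAAT on either strand was found for 18 of the 29 genes (62.1%) in 20 of the 33 member windows, against 37.4% of all windows. The CHR motif TTTGAA was found for 3 genes (10.3%) in 3 of the 33 member windows, against 17.9%. A match is a run of letters and no measure of binding. The printed promoters belong to genes that rose with cisplatin (Uhrf1, Cdc6 and Rrm2), did not pass (Mcm5) or fell (Mcm6). Only bases upstream of the RefSeq start and outside annotated exons are printed, 5′ to 3′ on the strand of the gene, with capitals for E2F motifs in the first 4 and for CCAAT in Rrm2, which had no E2F match.
Uhrf1, chr17:56304113-56304312, plus strand: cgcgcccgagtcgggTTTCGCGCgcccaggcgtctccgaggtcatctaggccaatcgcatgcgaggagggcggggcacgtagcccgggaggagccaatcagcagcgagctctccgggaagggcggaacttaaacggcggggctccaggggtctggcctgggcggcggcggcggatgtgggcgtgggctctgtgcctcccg
Cdc6, chr11:98907982-98908150, plus strand: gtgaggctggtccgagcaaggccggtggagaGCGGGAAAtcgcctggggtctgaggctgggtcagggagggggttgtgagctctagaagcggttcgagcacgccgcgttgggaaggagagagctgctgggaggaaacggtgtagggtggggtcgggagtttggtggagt
Mcm5, chr8:75109309-75109508, plus strand: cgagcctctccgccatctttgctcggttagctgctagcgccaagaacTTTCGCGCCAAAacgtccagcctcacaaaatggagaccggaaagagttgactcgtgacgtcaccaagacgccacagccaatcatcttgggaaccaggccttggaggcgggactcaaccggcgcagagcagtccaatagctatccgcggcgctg
Mcm6, chr1:128359706-128359905, minus strand: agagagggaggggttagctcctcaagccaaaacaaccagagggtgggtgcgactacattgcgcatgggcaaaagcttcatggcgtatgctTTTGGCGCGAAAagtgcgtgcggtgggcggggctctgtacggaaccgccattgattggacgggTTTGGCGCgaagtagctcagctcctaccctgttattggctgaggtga
Rrm2, chr12:24708054-24708240, plus strand: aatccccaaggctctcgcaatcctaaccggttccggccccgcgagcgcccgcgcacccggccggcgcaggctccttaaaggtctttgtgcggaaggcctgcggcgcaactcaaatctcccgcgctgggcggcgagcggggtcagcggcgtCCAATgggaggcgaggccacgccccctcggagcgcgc
The Uhrf1 and Cdc6 windows lie within the annotated span of the same gene, in introns of longer transcripts, and the other 3 lie outside any annotated gene.

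Levels are given as CPM, a count relative to the size of its library after scaling by TMM (trimmed mean of M values, which sets the typical gene equal between libraries). Per kilobase of exon, the vehicle means ran from 0.0439 CPM per kb for Orc1 to 10.9 for Gins4, with a median of 1.49 over the 38 genes. Licensing genes alone spanned most of that range, from Orc1 and Cdc6 (0.105 CPM per kb) to Gmnn (7.11). Counts of Orc1 lay between 2 and 28 per library. Orc1 was the only member that reached the filter's floor in fewer than 5 libraries outside the cisplatin group, so it entered the test through the group in which it was high.

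Some libraries stood apart from the rest of their group. Label numbers of the mice fell into the 300s (vehicle replicates 1 to 3 and KW6002 replicates 1 to 3) and the 500s (the other 16 mice, all cisplatin and co-treated mice among them), and what the number series marks is not given in the labels. Among vehicle mice, 19 of the 38 genes were lower in every mouse of the 500s than in every mouse of the 300s, against 19.3% of all genes tested, and 3 were higher, against 18.3%. Among KW6002 mice, 10 were lower (13.4% of all genes) and 2 higher (13.1%). The median log2 difference between the number series was -0.21 in both groups. Counts over the 38 genes against vehicle are therefore given with the mice of the 500s alone as well. Only vehicle replicates 4 and 5 remain there, and each gene whose call changed is given. Counts by role and for the other lists use all vehicle mice. In 1 co-treated library the 5 adrenal cortex markers summed to 83.4 CPM, against a median of 2.28 CPM in its group.

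With cisplatin, 22 of the 38 DNA replication genes rose (57.9%, against 34.6% of all genes tested) and 7 fell (18.4%, against 35.9%), at an adjusted p below 0.05 in edgeR's quasi-likelihood F test with Benjamini-Hochberg adjustment over all 17131 genes. The increases were largest for Rrm2, Uhrf1, Orc1, Ccne1, Cdc6 and Gins2, the 6 genes beyond a log2 fold change of 1 at an adjusted p below 0.01 (12.1% of all genes tested were higher at that threshold). The 7 decreases, in Gmnn, Mcm6, Mcm10, Rfc2, Pola1, Prim1 and Tk1, ran from 0.69-fold (Mcm10) to 0.803-fold (Gmnn). The median log2 fold change was 0.32 over the members and -0.01 over all genes. In 18 genes every cisplatin library lay above every vehicle library (27.4% of all genes), and in 3 genes every one lay below (27.9%). Scaling by library size alone, under which the median of all genes was 0.20, gave 28 higher and 1 lower (Rfc2), against 47.6% and 24.8% of all genes. With the mice of the 500s alone, 23 were higher and 4 lower, against 31.4% and 31.7% of all genes. The median there was 0.45, with 0.01 over all genes.

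**Figure D1:**
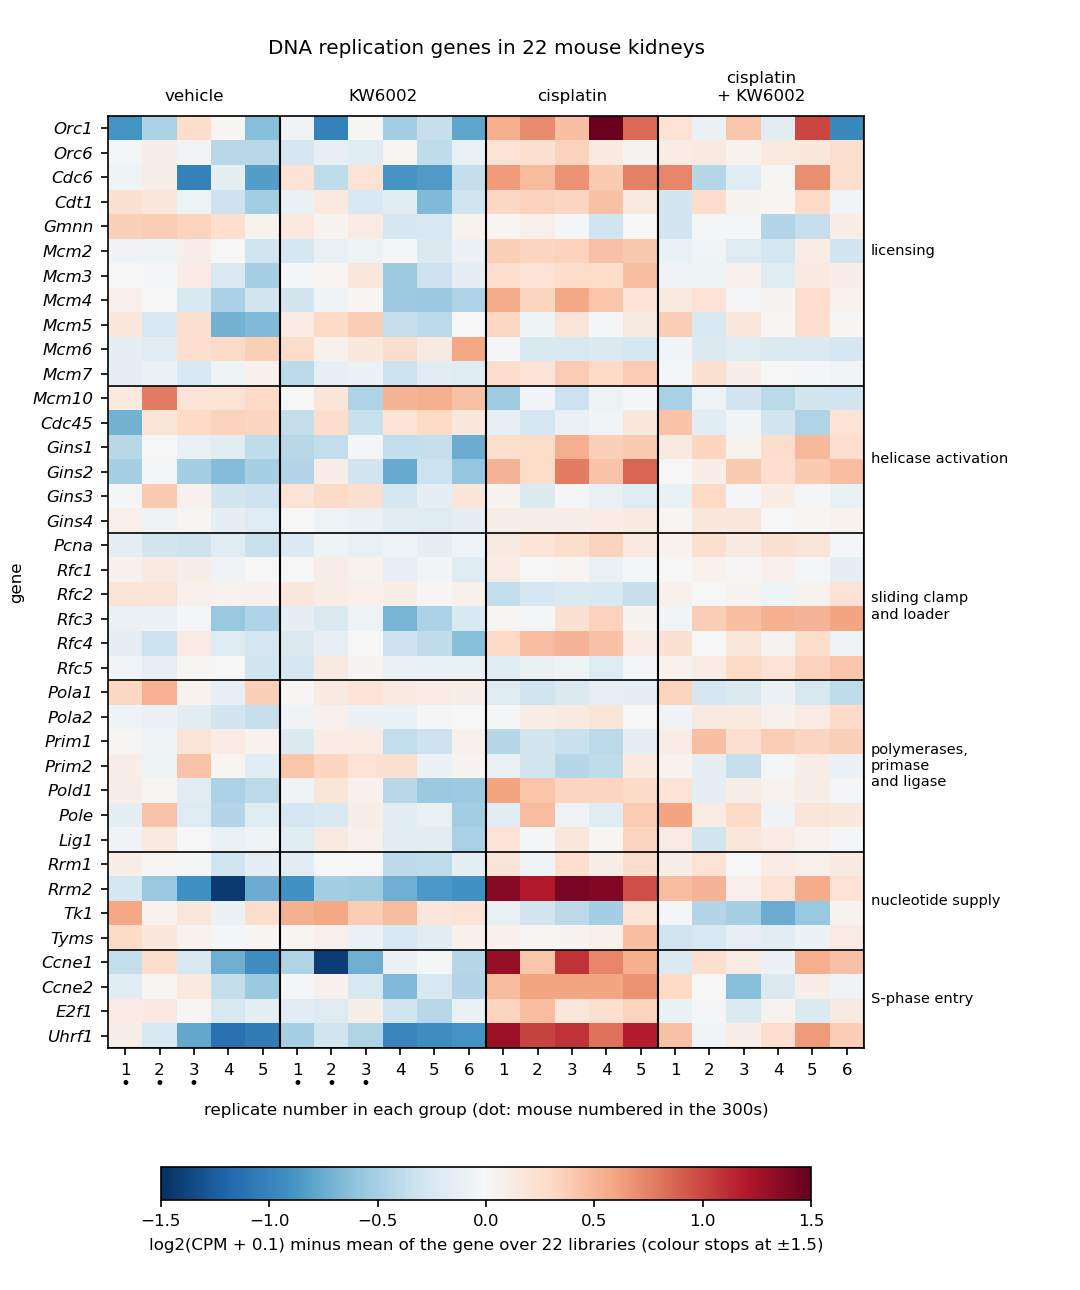
Each row is 1 of the 38 genes, grouped by role, and each column is 1 of the 22 libraries. The colour is log2 CPM minus the gene's mean over all libraries, red for higher and blue for lower, and dots mark mice numbered in the 300s. The 5 cisplatin columns are red for most genes and mostly blue for the 7 that fell under TMM scaling, of which Rfc2 alone passed as lower under scaling by library size.

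In bulk tissue, more RNA per cell and a larger share of cells that make it cannot be told apart. The RNA of cell type markers shifted strongly in these kidneys, and the same limit holds for it. All 10 proximal tubule markers fell with cisplatin (median log2 fold change -3.17), and their summed level went from 22904.5 to 24251.2 CPM in vehicle mice to 2194.6 to 4053.0 in cisplatin mice. All 4 thick ascending limb markers fell as well (median -1.56), and of 7 distal tubule and collecting duct markers 4 fell and 1 rose. Markers of the injured tubule rose in 9 of 10 genes, and fibroblast markers in 5 of 6. T cell markers were near 0 in all groups (4.09 to 7.38 CPM in sum with vehicle, 1.47 to 2.38 with cisplatin), B cell markers summed to at most 4.21 CPM in any library, and neutrophil markers to at most 17.4 CPM. Of the 8 macrophage markers 2 rose and 2 fell, as did 2 and 2 of the 7 endothelial markers. Among all genes 34.6% rose and 35.9% fell. The part of these shifts in the changes of replication genes was not tested.

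Genes of S-phase entry gave the only role in which every member rose with cisplatin and every member fell when KW6002 was added. Of all genes 34.6% rose in the first comparison and 27.2% fell in the second. Uhrf1 encodes a protein that brings the maintenance DNA methyltransferase to newly copied DNA. Its level was 2.75, 2.17, 1.48, 1.13 and 1.2 CPM in the 5 vehicle mice and 6.42, 5.3, 5.6, 4.6 and 5.98 CPM in the 5 cisplatin mice. It lay between 2.51 and 4.07 CPM (median 3.23) in co-treated mice and between 1.25 and 2.12 (median 1.57) with KW6002 alone. All cisplatin libraries stood above all others, and the co-treated libraries lay between the cisplatin and KW6002 groups without touching either. The log2 fold change was 1.68 ± 0.21 (SE, adjusted p = 1.88e-07, edgeR) with cisplatin and -0.79 ± 0.19 (adjusted p = 0.001) when KW6002 was added, which left co-treated mice 1.84-fold above vehicle (adjusted p = 0.00072). In the mice of the 500s the log2 difference from vehicle was 2.25 with cisplatin and 1.46 in co-treated mice.

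Ccne1 and Ccne2 encode the E cyclins, the partners of Cdk2 at the start of S phase. Ccne1 measured 0.486, 0.802, 0.538, 0.352 and 0.293 CPM in vehicle mice and 1.76, 0.904, 1.49, 1.15 and 0.991 CPM in cisplatin mice. In co-treated mice it ran from 0.544 to 0.997 CPM (median 0.752), and with KW6002 alone from 0.183 to 0.633 (median 0.454). Cisplatin and vehicle libraries did not overlap, whereas the co-treated libraries overlapped both. Its log2 fold change was 1.36 ± 0.29 (SE, adjusted p = 0.000209, edgeR) with cisplatin and -0.72 ± 0.25 (adjusted p = 0.02) with KW6002 added. The second call was lost without cisplatin replicate 1 (-0.57, adjusted p = 0.079) and without cisplatin replicate 3 (-0.65, adjusted p = 0.0532), within a range of 0.00693 to 0.079 over all alternatives. Against vehicle, co-treated mice did not pass (0.64, adjusted p = 0.0598), but did in the mice of the 500s (1.24, adjusted p = 0.00887), where the value with cisplatin was 1.95. Ccne2 rose 1.72-fold and fell 1.59-fold, from means of 1.75 ± 0.357 CPM (SD, n = 5) with vehicle and 3 ± 0.153 (n = 5) with cisplatin to 1.89 ± 0.405 (n = 6) in co-treated mice. E2f1, an activator of S-phase transcription, rose 1.26-fold and fell 1.3-fold, and its co-treated level did not pass against vehicle (log2 fold change -0.04 ± 0.11). For Ccne2 and E2f1 every cisplatin library lay above every vehicle and every co-treated library.

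Nucleotide supply held the largest single change. Rrm2 encodes the small subunit of ribonucleotide reductase, the enzyme that makes deoxyribonucleotides and whose small subunit is made in S phase. Its level was 6.15, 4.97, 3.86, 2.68 and 4.39 CPM in the vehicle mice and 19.2, 17, 20, 19.6 and 14.6 CPM in the cisplatin mice. Co-treated mice ran from 7.79 to 10.9 CPM (median 9.41), and KW6002 mice from 3.9 to 5.15 (median 4.21). The cisplatin, co-treated and vehicle libraries formed 3 ranges with no overlap, and the KW6002 libraries lay within the vehicle range. Cisplatin raised Rrm2 4.09-fold (log2 fold change 2.03 ± 0.16 SE, adjusted p = 8.45e-11, edgeR), added KW6002 lowered it 1.91-fold (-0.94 ± 0.14, adjusted p = 6.84e-06), and co-treated mice remained 2.14-fold above vehicle (adjusted p = 1.95e-06).

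Rrm1, which encodes the large subunit that is kept through the cell cycle, changed by 0.22 ± 0.08 with cisplatin (SE, log2, adjusted p = 0.0262) and by -0.05 ± 0.08 with KW6002 added. Its cisplatin call was lost without cisplatin replicate 3 or 5 or vehicle replicate 4 or 5 (log2 fold changes from 0.16 to 0.20, adjusted p up to 0.0926 over all alternatives and down to 0.000178). The ratio of Rrm2 to Rrm1 counts within a library, which no scaling touches, ran from 0.177 to 0.309 with vehicle, 0.232 to 0.31 with KW6002, 0.653 to 0.987 with cisplatin and 0.422 to 0.558 in co-treated mice. That ratio therefore separated cisplatin from co-treated mice and both from the others in every library. Rrm2b, the p53-driven alternative small subunit, had levels of 37.6 CPM with vehicle and 36.7 with cisplatin, did not pass between them (-0.04, adjusted p = 0.683), and was lower in co-treated than in cisplatin mice (-0.39, adjusted p = 8.23e-05).

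The other members of nucleotide supply make thymidylate and moved apart from Rrm2. Tk1, the cytosolic thymidine kinase, measured 8.13, 5.61, 6.08, 5.07 and 6.54 CPM with vehicle and 5.01, 4.45, 4.1, 3.77 and 6.26 CPM with cisplatin. It ran from 3.19 to 5.64 CPM (median 3.88) in co-treated mice and from 6.08 to 8.12 (median 7.31) with KW6002 alone. The cisplatin replicate at 6.26 CPM lay inside the vehicle range. Tk1 fell 1.34-fold with cisplatin (log2 fold change -0.42 ± 0.16 SE, adjusted p = 0.0254, edgeR) and 1.48-fold in co-treated mice against vehicle (adjusted p = 0.0034). The first call was lost without cisplatin replicate 2, 3 or 4, without vehicle replicate 1, in the mice of the 500s (-0.31) and under scaling by library size (-0.20), with adjusted p from 0.00534 to 0.267 over all alternatives. The second was lost in the mice of the 500s too (-0.45, adjusted p = 0.0878).

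Tyms, thymidylate synthase, measured 15.2, 13.9, 12.9, 12.3 and 12.6 CPM with vehicle and 13, 12.6, 12.8, 13.1 and 17.1 CPM with cisplatin, and ran from 10.1 to 13.5 CPM (median 11.2) in co-treated mice. With KW6002 alone it ran from 10.5 to 13 CPM (median 12.2). It did not pass with cisplatin (0.03 ± 0.09) and was lower with KW6002 added (-0.27 ± 0.09, adjusted p = 0.0137), a call that was lost without cisplatin replicate 5 (-0.18, adjusted p = 0.0706, and 0.00297 to 0.0706 over all alternatives). Of the 13 further genes of nucleotide metabolism 12 were tested, of which 3 rose and 3 fell with cisplatin (median 0.01). The shares of all genes were 34.6% and 35.9%. Shmt1, an enzyme of folate metabolism that also works outside S phase, fell by 0.79 on the log2 scale and was 0.62 higher with KW6002 added. Cmpk1, a kinase for pyrimidine nucleotides, rose by 0.38.

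**Figure D2:**
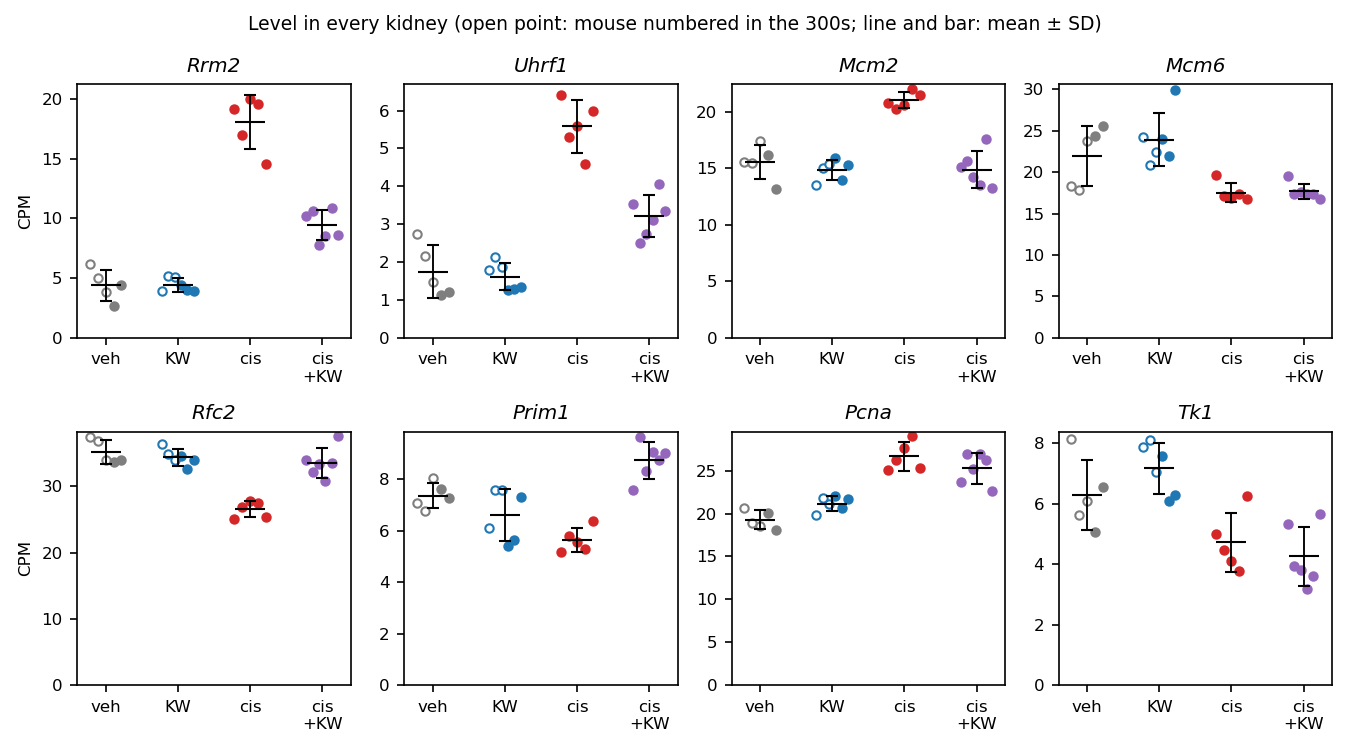
Points are single kidneys on a CPM axis that starts at 0, for 8 genes and the 4 groups (veh, vehicle; KW, KW6002; cis, cisplatin; cis +KW, co-treated), with open points for mice numbered in the 300s and lines and bars for the mean ± SD. Rrm2, Uhrf1 and Mcm2 were highest in the cisplatin mice, Rfc2 and Prim1 were lowest there, and Pcna was high and Mcm6 and Tk1 low in both groups given cisplatin; the lower calls of Mcm6, Prim1 and Tk1 were lost under scaling by library size.

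In licensing, 8 of 11 genes rose with cisplatin and 2 fell (median log2 fold change 0.40), against 34.6% and 35.9% of all genes. When KW6002 was added 4 fell and 0 rose (median -0.27), against 27.2% and 28.6% of all genes, so that the share of decreases was not far from that of all genes. Orc1, the regulated subunit of the origin recognition complex, measured 0.0648, 0.12, 0.269, 0.211 and 0.0976 CPM with vehicle and 0.346, 0.402, 0.32, 0.749 and 0.453 CPM with cisplatin. In co-treated mice it ran from 0.0573 to 0.513 CPM (median 0.222), and with KW6002 alone from 0.0522 to 0.211 (median 0.127). The cisplatin libraries stayed above all vehicle and KW6002 libraries, and the co-treated libraries reached across both ranges. The log2 fold change was 1.55 ± 0.44 (SE, adjusted p = 0.00327, edgeR) with cisplatin and -0.85 ± 0.38 (adjusted p = 0.0573) with KW6002 added. The second value passed without co-treated replicate 5 (-1.21, adjusted p = 0.00956), without cisplatin replicate 3 (-0.96, adjusted p = 0.0489) and under scaling by library size (-0.91, adjusted p = 0.0449), and reached 0.207 over all alternatives. Without Orc1, 21 members rose with cisplatin, and each other count of higher members with cisplatin that includes it is 1 lower.

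Cdc6, the loader of the Mcm ring, was the next largest. It measured 0.68, 0.762, 0.302, 0.634 and 0.358 CPM with vehicle and 1.17, 1.03, 1.2, 0.963 and 1.27 CPM with cisplatin, 2 groups with no overlap, and its log2 fold change was 1.05 ± 0.29 (SE, adjusted p = 0.00288). Co-treated mice spread from 0.502 to 1.25 CPM (median 0.792), and KW6002 mice from 0.34 to 0.843 (median 0.529). The Cdc6 difference of co-treated mice passed neither against cisplatin (adjusted p = 0.222) nor against vehicle (adjusted p = 0.051). Orc6, a small subunit of the origin recognition complex, rose 1.27-fold and stayed up in co-treated mice (1.22-fold, adjusted p = 0.00971).

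Cdt1 and its inhibitor geminin, encoded by Gmnn, went in opposite directions with cisplatin. Cdt1 rose 1.31-fold (adjusted p = 0.019), a call that was lost without vehicle replicate 4 (0.34, adjusted p = 0.0548) or 5 (0.30, adjusted p = 0.0684), with adjusted p from 0.0002 to 0.0684 over all alternatives. Gmnn measured 11, 11.2, 10.8, 10.2 and 8.92 CPM with vehicle and 8.74, 9.07, 8.42, 6.98 and 8.58 CPM with cisplatin, where 1 library just reached into the vehicle range. It ran from 6.29 to 9.22 CPM (median 7.69) in co-treated mice and from 7.17 to 9.51 (median 8.87) with KW6002 alone. Its log2 fold change was -0.32 ± 0.11 (SE, adjusted p = 0.0127) with cisplatin and -0.44 ± 0.10 (adjusted p = 0.000989) in co-treated mice against vehicle. In the mice of the 500s both calls were lost (-0.20, adjusted p = 0.236, and -0.32, adjusted p = 0.0709), and the first was also lost under scaling by library size (-0.10, adjusted p = 0.409), with adjusted p from 0.00185 to 0.409 over all alternatives. Counts of Gmnn were 1.6 to 2.21 times those of Cdt1 with vehicle and 1.37 to 1.98 times with KW6002 alone. They were 0.876 to 1.33 times with cisplatin and 0.944 to 1.63 times in co-treated mice.

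The 6 subunits of the Mcm ring form a complex with 1 copy of each, yet their RNAs did not move as 1. With cisplatin, Mcm2, Mcm3, Mcm4 and Mcm7 rose between 1.32-fold and 1.51-fold, Mcm5 did not pass and Mcm6 fell, and all 4 that rose fell again when KW6002 was added. Mcm2 measured 15.6, 15.5, 17.4, 16.2 and 13.2 CPM with vehicle and 20.8, 20.3, 20.6, 22 and 21.5 CPM with cisplatin. Co-treated mice ran from 13.3 to 17.6 CPM (median 14.7) and KW6002 mice from 13.5 to 15.9 (median 15.2). The cisplatin libraries lay above those of every other group, and the co-treated range covered the vehicle values almost completely. The log2 fold change was 0.43 ± 0.07 (SE, adjusted p = 2.14e-05, edgeR) with cisplatin, -0.50 ± 0.07 (adjusted p = 3.73e-06) with KW6002 added and -0.06 ± 0.07 (adjusted p = 0.464) for co-treated against vehicle mice.

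Mcm6 measured 18.3, 17.9, 23.8, 24.4 and 25.6 CPM in vehicle mice and 19.6, 17.1, 16.9, 17.3 and 16.7 CPM in cisplatin mice. It ran from 16.8 to 19.5 CPM (median 17.4) in co-treated mice and from 20.9 to 29.9 (median 23.2) with KW6002 alone. Cisplatin replicate 1 lay above 2 of the vehicle libraries, both from mice of the 300s, while the other 4 lay below them all. Mcm6 fell 1.26-fold with cisplatin (log2 fold change -0.33 ± 0.10, adjusted p = 0.00484), did not pass with KW6002 added (0.01 ± 0.09) and stayed 1.24-fold below vehicle in co-treated mice (adjusted p = 0.00614). In the mice of the 500s the decrease with cisplatin was 0.52 on the log2 scale, and under scaling by library size it was 0.11 and not past the threshold (adjusted p = 0.336, and 0.000151 to 0.336 over all alternatives). The co-treated difference of Mcm6 from vehicle was not past it under that scaling either (-0.16, adjusted p = 0.162). The count ratio of Mcm6 to Mcm2 was 1.16 to 1.93 with vehicle, 1.39 to 1.95 with KW6002, 0.773 to 0.94 with cisplatin and 0.989 to 1.29 in co-treated mice, so that the 2 subunits changed unequally whatever the scaling.

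The Mcm5 call depended on which vehicle mice were used. Its level was 6.8, 5.13 and 7.16 CPM in vehicle replicates 1 to 3 and 3.66 and 3.81 CPM in replicates 4 and 5, and 7.57, 5.78, 6.93, 5.99 and 6.65 CPM with cisplatin. The log2 fold change was 0.31 ± 0.18 (SE, adjusted p = 0.128) over all mice and 0.81 (adjusted p = 0.000346) in the mice of the 500s, and it passed without vehicle replicate 3 (0.44, adjusted p = 0.037), with 0.000121 to 0.328 over all alternatives. With KW6002 added, Mcm3 fell by 0.29 and Mcm4 by 0.30, calls that were lost without single libraries. These were 5 libraries for Mcm3, cisplatin replicates 4 and 5 and co-treated replicates 1, 2 and 4 (adjusted p up to 0.0903). For Mcm4 they were 3, cisplatin replicates 1 and 3 and co-treated replicate 3 (adjusted p up to 0.0709). Mcm7, with a decrease of 0.27, kept its call under every alternative but the stricter thresholds.

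**Figure D3:**
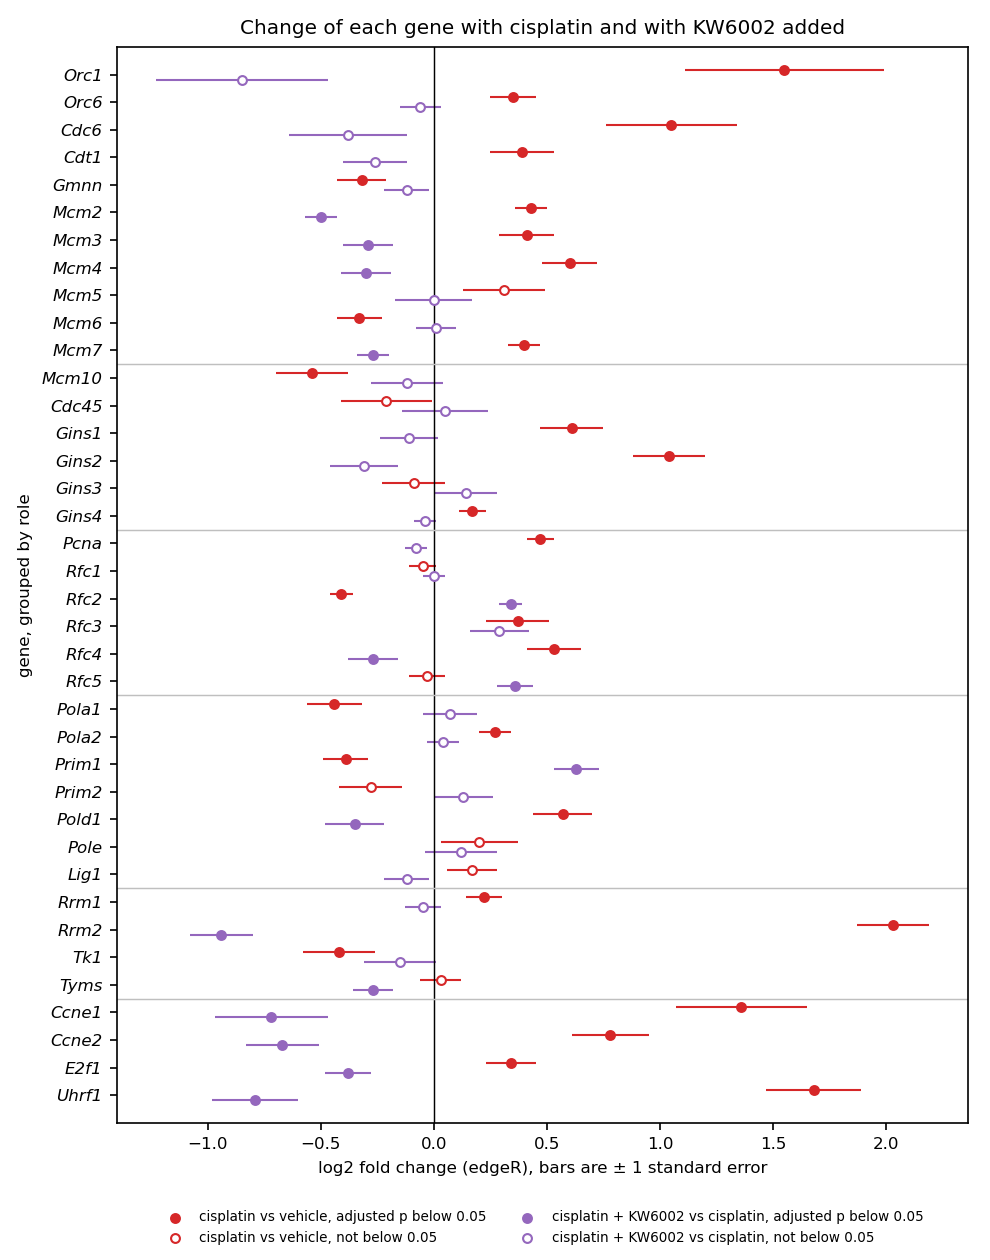
Log2 fold changes from edgeR with bars of 1 standard error, 1 row per gene and grouped by role, red for cisplatin against vehicle and violet for co-treated against cisplatin mice, filled where the adjusted p was below 0.05. Rrm2 (2.03 and -0.94) and Uhrf1 (1.68 and -0.79) were far out in opposite directions and passed in both comparisons, and Rfc2 (-0.41 and 0.34) and Prim1 (-0.39 and 0.63) showed the reverse order, Prim1 without a call for the decrease under scaling by library size.

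Among the 6 genes of helicase activation, 3 rose with cisplatin and 1 fell, against 34.6% and 35.9% of all genes. When KW6002 was added 0 of 6 passed, where 28.6% of all genes rose and 27.2% fell. Fold changes there ran from -0.31 (Gins2) to 0.14 (Gins3) on the log2 scale. Gins2, a subunit of the GINS complex, measured 2.4, 3.41, 2.39, 2.15 and 2.41 CPM with vehicle and 4.95, 4.19, 5.92, 4.65 and 6.37 CPM with cisplatin, ran from 3.42 to 4.78 CPM (median 4.34) in co-treated mice, and ran from 2 to 3.68 (median 2.62) with KW6002 alone. Every library of both groups given cisplatin lay above every vehicle library. It rose 2.05-fold with cisplatin (log2 fold change 1.04 ± 0.16 SE, adjusted p = 4.80e-06, edgeR) and stayed 1.65-fold up in co-treated mice (adjusted p = 0.000395). The difference between co-treated and cisplatin mice had an adjusted p of 0.0734, and it passed without cisplatin replicate 2 (-0.38, adjusted p = 0.0398) and in the mice of the 500s (-0.31, adjusted p = 0.0428), with 0.0337 to 0.206 over all alternatives.

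Gins1, a second subunit, behaved alike at a smaller size: 1.23, 1.68, 1.55, 1.48 and 1.27 CPM with vehicle became 2.02, 2.06, 2.5, 2.17 and 2.24 CPM with cisplatin and 1.75 to 2.39 CPM (median 2.02) in co-treated mice, against 0.958 to 1.65 (median 1.28) with KW6002 alone. The rise was 1.53-fold (adjusted p = 0.000375) with cisplatin and 1.41-fold (adjusted p = 0.00265) in co-treated mice. Gins4 rose 1.13-fold (adjusted p = 0.00946), and Gins3 did not pass, at 2.1, 2.85, 2.25, 1.76 and 1.72 CPM with vehicle and 2.21, 1.86, 2.11, 1.98 and 1.87 CPM with cisplatin. In co-treated mice Gins3 ran from 2.01 to 2.67 CPM (median 2.12). Cdc45, the helicase cofactor that joins GINS, did not pass either (-0.21 ± 0.20 with cisplatin).

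Mcm10, which helps to start the helicase, went the other way. It measured 6.74, 10.4, 6.96, 7.08 and 7.48 CPM in vehicle mice and 4.16, 5.88, 4.85, 5.75 and 6 CPM in cisplatin mice, with no overlap. Co-treated mice ran from 4.32 to 5.74 CPM (median 4.94), also below every vehicle library, and KW6002 mice from 4.39 to 8.9 (median 7.59). Mcm10 changed on the log2 scale by -0.54 ± 0.16 (SE, adjusted p = 0.00528) with cisplatin and -0.65 ± 0.15 (adjusted p = 0.000985) in co-treated mice. The decrease with cisplatin did not pass under scaling by library size (-0.32, adjusted p = 0.0719, and 0.00131 to 0.0719 over all alternatives).

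The sliding clamp gene Pcna rose and stayed up, while the 5 genes of its loader split. Pcna, also a p53 target used in repair, measured 20.7, 18.9, 18.5, 20.1 and 18.1 CPM with vehicle and 25.1, 26.3, 27.6, 29 and 25.3 CPM with cisplatin. Co-treated mice ran from 22.6 to 27 CPM (median 25.7), with every library above the vehicle range, and KW6002 mice from 19.8 to 22 (median 21.4). Pcna changed on the log2 scale by 0.47 ± 0.06 (SE, adjusted p = 1.87e-07, edgeR) with cisplatin, 0.39 ± 0.06 (adjusted p = 3.03e-06) for co-treated against vehicle mice, and -0.08 ± 0.05 (adjusted p = 0.231) between the groups given cisplatin.

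Rfc2 fell in every cisplatin library and was back at the vehicle level in co-treated mice. Its level was 37.4, 36.9, 33.9, 33.6 and 33.9 CPM with vehicle and 25.1, 26.8, 27.8, 27.5 and 25.4 CPM with cisplatin, 30.8 to 37.6 CPM (median 33.4) in co-treated mice and 32.6 to 36.4 (median 34.3) with KW6002 alone. The cisplatin range lay below the ranges of the other 3 groups, which overlapped. On the log2 scale Rfc2 changed by -0.41 ± 0.05 (SE, adjusted p = 3.04e-07) with cisplatin and 0.34 ± 0.05 (adjusted p = 5.09e-06) with KW6002 added, and it was the 1 decrease with cisplatin that scaling by library size kept. Rfc5 measured 9.46, 8.9, 9.85, 9.69 and 7.88 CPM with vehicle, 8.55, 9.04, 9.33, 8.48 and 9.57 CPM with cisplatin, 10.1 to 13 CPM (median 11.7) in co-treated mice and 8.16 to 10.7 (median 9.05) with KW6002 alone. It thus passed only where both drugs were given, by 0.36 ± 0.08 against cisplatin (adjusted p = 0.000562) and 0.34 ± 0.08 against vehicle (adjusted p = 0.0011) on the log2 scale. Under scaling by library size Rfc5 was higher with cisplatin as well (0.19, adjusted p = 0.0422), where the sign under TMM was negative (-0.03, adjusted p = 0.802, and up to 0.995 over all alternatives).

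Rfc4 was the only gene of this role that passed as higher with cisplatin and as lower with KW6002 added. It measured 4.15, 3.65, 5.04, 4.02 and 3.84 CPM with vehicle and 5.7, 6.4, 6.61, 6.26 and 4.98 CPM with cisplatin, where the lowest cisplatin library fell just inside the vehicle range, and 4.38 to 5.53 CPM (median 4.97) in co-treated mice, against 2.91 to 4.64 (median 3.83) with KW6002 alone. It rose 1.45-fold (adjusted p = 0.00035) and fell 1.2-fold with KW6002 added (adjusted p = 0.0438), a call that was lost without any of cisplatin replicates 1 to 4 or co-treated replicates 2, 3, 4 and 6 (adjusted p from 0.0182 to 0.11 over all alternatives). Rfc3 rose 1.29-fold with cisplatin (adjusted p = 0.021) and 1.58-fold in co-treated mice (adjusted p = 0.000201), the first call lost without vehicle replicate 4 or 5 or cisplatin replicate 4 (0.29 to 0.32, adjusted p up to 0.0693 over all alternatives and down to 0.000339). Rfc1, the large subunit, stayed between 35.6 and 42.2 CPM in vehicle and cisplatin mice and did not pass, with a log2 fold change of -0.05 under TMM that turned to 0.17 (adjusted p = 0.0227, and up to 0.827 over all alternatives) under scaling by library size. Counts of Rfc2 were 6.73 to 10.1 times those of Rfc4 with vehicle and 7.33 to 11.6 times with KW6002 alone. They were 4.18 to 5.1 times with cisplatin and 6.06 to 8.59 times in co-treated mice.

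Of the 7 genes of polymerases, primase and ligase, 2 rose and 2 fell with cisplatin, shares near or under the 34.6% and 35.9% of all genes. Pold1, the catalytic subunit of the lagging strand polymerase delta, measured 9.59, 9.14, 8.06, 6.45 and 6.8 CPM with vehicle and 13.6, 12, 11.3, 11.3 and 11 CPM with cisplatin, with no overlap. It ran from 8.12 to 10.4 CPM (median 9.44) in co-treated mice, below every cisplatin library, and from 6.08 to 10.2 (median 7.68) with KW6002 alone. Pold1 changed on the log2 scale by 0.57 ± 0.13 (SE, adjusted p = 0.000733, edgeR) with cisplatin and -0.35 ± 0.13 (adjusted p = 0.0236) with KW6002 added, the latter lost without cisplatin replicate 1 (-0.29, adjusted p = 0.0735) or co-treated replicate 2 (-0.31, adjusted p = 0.054), with 0.000365 to 0.0735 over all alternatives. Pole, the leading strand polymerase, and Lig1, which joins Okazaki fragments, did not pass (0.20 ± 0.17 and 0.17 ± 0.11 with cisplatin).

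The polymerase alpha and primase complex, which lays the first primer, was split. Prim1, the catalytic primase subunit, measured 7.09, 6.78, 8.06, 7.64 and 7.29 CPM with vehicle and 5.19, 5.78, 5.57, 5.3 and 6.4 CPM with cisplatin. Co-treated mice ran from 7.58 to 9.63 CPM (median 8.9) and KW6002 mice from 5.4 to 7.6 (median 6.7). The cisplatin libraries lay below all vehicle and all co-treated libraries. Prim1 fell 1.31-fold with cisplatin (log2 fold change -0.39 ± 0.10 SE, adjusted p = 0.00163), rose 1.55-fold with KW6002 added (0.63 ± 0.10, adjusted p = 7.81e-06) and ended 1.18-fold above vehicle (adjusted p = 0.0311). The decrease did not pass under scaling by library size (-0.17, adjusted p = 0.134, and 0.000632 to 0.134 over all alternatives), and the last difference did not pass in the mice of the 500s (0.23, adjusted p = 0.139).

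Pola1, the catalytic subunit of polymerase alpha, measured 7.93, 9.22, 6.59, 5.85 and 8.17 CPM with vehicle and 5.57, 5.17, 5.46, 5.86 and 5.78 CPM with cisplatin, where the highest cisplatin library was level with the lowest vehicle library. It ran from 4.87 to 8.03 CPM (median 5.4) in co-treated mice and from 6.43 to 7.34 (median 6.93) with KW6002 alone. It fell 1.36-fold with cisplatin (adjusted p = 0.0025), a call not held in the mice of the 500s (-0.34, adjusted p = 0.0726) or under scaling by library size (-0.22, adjusted p = 0.118), with 0.000396 to 0.118 over all alternatives. Pola2, the second subunit, rose 1.2-fold with cisplatin (adjusted p = 0.00197) and 1.24-fold in co-treated mice (adjusted p = 0.000499). Prim2 did not pass (-0.28 ± 0.14, adjusted p = 0.0715), though it did without cisplatin replicate 5 (-0.38, adjusted p = 0.0157) or vehicle replicate 5 (-0.34, adjusted p = 0.0376), with 0.0157 to 0.704 over all alternatives. The count ratio of Prim1 to Pola2 ran from 0.69 to 0.893 with vehicle and from 0.447 to 0.617 with cisplatin. It ran from 0.705 to 0.837 in co-treated mice. With KW6002 alone it ran from 0.544 to 0.774, a range that overlapped that of every other group.

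Adding KW6002 to cisplatin lowered 12 of the 38 genes (31.6%, against 27.2% of all genes tested) and raised 3 (7.89%, against 28.6%), namely Rfc2, Rfc5 and Prim1. The 12 were Mcm2, Mcm3, Mcm4, Mcm7, Rfc4, Pold1, Rrm2, Tyms, Ccne1, Ccne2, E2f1 and Uhrf1, of which all but Tyms had risen with cisplatin. The comparisons share the cisplatin mice, so an increase in the first and a decrease in the second are not independent. How many of all genes passed in both of these directions was not counted, so this order cannot be called particular to the members. The share of lower calls was near that of all genes, and 0 members were lower beyond a log2 fold change of 1 at an adjusted p below 0.01 (5.66% of all genes). In 7 members every co-treated library lay below every cisplatin library (18.5% of all genes), and in 3 every one lay above (19.3%). The median log2 fold change was -0.12, with 0.01 over all genes. Without cisplatin replicate 1, 8 members were lower.

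Against vehicle, co-treated mice had 12 higher members (31.6%, against 29.8% of all genes tested) and 6 lower ones (15.8%, against 29.9%). The higher ones were Orc6, Mcm4, Gins1, Gins2, Gins4, Pcna, Rfc3, Rfc5, Pola2, Prim1, Rrm2 and Uhrf1, and the lower ones Gmnn, Mcm6, Mcm10, Pola1, Tk1 and Tyms. Rrm2 alone was beyond a log2 fold change of 1 at an adjusted p below 0.01, a threshold that 5.83% of all genes passed as higher. The median log2 fold change was 0.15 over the members. With the mice of the 500s alone the counts were 18 higher and 2 lower, against 24.6% and 23.7% of all genes. The member median there was 0.35. Scaling by library size, under which the median of all genes was 0.16, gave 20 higher and 3 lower, against 43.2% and 20.6%. In the mice of the 500s Gmnn, Pola1, Prim1, Tk1 and Tyms no longer passed, and Cdt1, Mcm3, Mcm5, Pold1, Pole, Rrm1 and Ccne1 passed as higher. Under scaling by library size Mcm6, Pola1 and Tyms no longer passed as lower.

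KW6002 without cisplatin changed 0 of the 38 genes in edgeR, and 0 in DESeq2, where 3 members had an unadjusted p below 0.05 in edgeR. Over all genes 0.0175% passed and 11.3% had an unadjusted p below 0.05. Member fold changes ran from -0.29 (Gmnn) to 0.23 (Mcm5) on the log2 scale. The effect of KW6002 differed between mice with and without cisplatin for 7 members. It was more positive with cisplatin for 3 (22.8% of all genes), Prim1 by 0.79 ± 0.14 (SE, log2, adjusted p = 6.84e-05, edgeR), Rfc2 by 0.37 ± 0.07 (adjusted p = 0.000204) and Rfc5 by 0.33 ± 0.11 (adjusted p = 0.0214). It was more negative for 4 (19.9% of all genes), with values of -0.94 ± 0.21 for Rrm2 (adjusted p = 0.00105), -0.60 ± 0.23 for Ccne2 (adjusted p = 0.0405), -0.43 ± 0.10 for Mcm2 (adjusted p = 0.0018) and -0.21 ± 0.08 for Pcna (adjusted p = 0.0317). Without vehicle replicate 5 or cisplatin replicate 3, 2 were more negative.

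Mitosis genes had medians farther from 0 than replication genes in both comparisons. Of 20 genes for mitosis, 18 rose and 0 fell with cisplatin (median log2 fold change 1.15), and 18 fell and 0 rose when KW6002 was added (median -1.58). Of all genes 34.6% rose and 35.9% fell in the first comparison, and 28.6% rose and 27.2% fell in the second. Mki67, the proliferation marker, went from 5.2 CPM with vehicle to 11.6 with cisplatin and 3.16 in co-treated mice, with log2 fold changes of 1.16 (adjusted p = 0.00117) and -1.87 (adjusted p = 6.57e-06). Top2a, the topoisomerase that untangles chromosomes, went from 4.09 to 12.2 and to 2.91 CPM. In co-treated mice against vehicle 1 of the 20 was higher and 5 lower (median -0.39), where the replication genes had 12 higher and 6 lower. The difference between the lists was not tested.

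**Figure D4:**
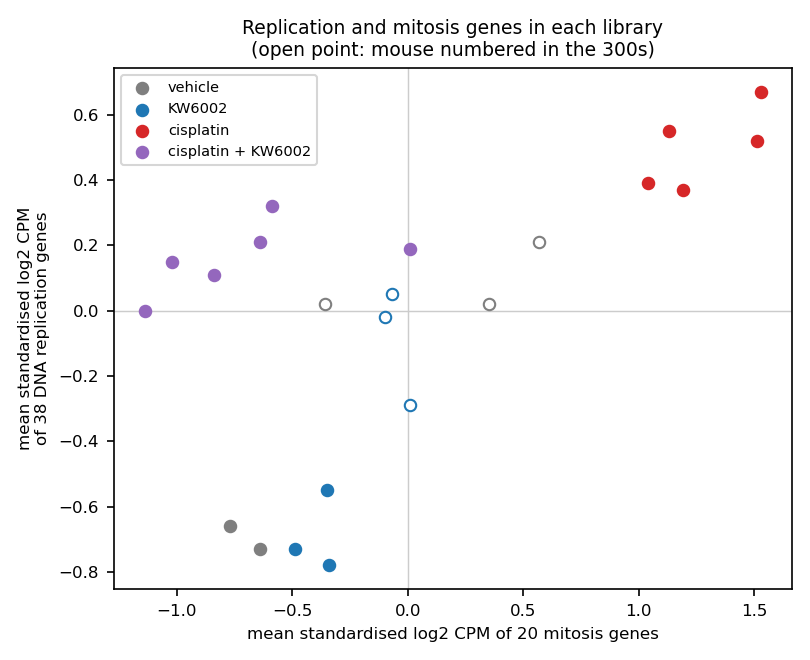
Each point is 1 library, placed by the mean standardised log2 CPM of the 20 mitosis genes (horizontal) and of the 38 replication genes (vertical), with open points for mice numbered in the 300s. Cisplatin libraries lie at the upper right (replication 0.37 to 0.67, mitosis 1.04 to 1.53), and co-treated libraries lie at 0.32 or less for replication and at 0.01 or less for mitosis.

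Averaged over the 38 genes, each standardised over the libraries, the replication level was -0.23 ± 0.43 (SD, n = 5) with vehicle, -0.39 ± 0.36 (n = 6) with KW6002, 0.50 ± 0.12 (n = 5) with cisplatin and 0.16 ± 0.11 (n = 6) in co-treated mice. The corresponding mitosis levels were -0.17 ± 0.60, -0.22 ± 0.20, 1.28 ± 0.23 and -0.70 ± 0.41. Vehicle mice of the 300s had replication levels of 0.02, 0.21 and 0.02, and those of the 500s -0.66 and -0.73. Their mitosis levels were 0.35, 0.57 and -0.36 in the 300s and -0.77 and -0.64 in the 500s. The co-treated mice, all of the 500s, had mitosis levels from -1.14 to 0.01. The share of the number series in the mitosis difference from vehicle was not tested. Members did not all follow their own mean. Over the 22 libraries, which differ in group and number series, Pearson's r with the mean of the other members was highest for Mcm4 and Uhrf1 (0.91 each) and Pold1 (0.90) and most negative for Mcm6 (-0.82), Mcm10 (-0.63) and Rfc2 (-0.57). Outside the list, the 10 genes with the highest r to the member mean over 22 libraries were Rn7sk (0.934), Akap1, Ccdc9b, Rcor2, 1110059E24Rik, Sh3tc2, Lgals8, Plch1, Bora and Kifc1 (0.902). Of these, Kifc1, a mitotic kinesin, and Bora, an activator of mitotic kinases, act in cell division.

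A further 45 replication genes gave 24 higher and 12 lower with cisplatin (median 0.29) and 11 higher and 11 lower with KW6002 added (median -0.06). Of all genes, 34.6% were higher and 35.9% lower in the first comparison and 28.6% and 27.2% in the second, and the second pair of counts was near these shares. Pold4, the smallest subunit of polymerase delta, changed most, from 16.4 CPM with vehicle to 125.2 with cisplatin (log2 fold change 2.94, adjusted p = 9.45e-15) and 21.5 in co-treated mice (-2.54, adjusted p = 5.16e-13). Chaf1b, of the factor that deposits histones behind the fork, rose by 1.49 (adjusted p = 4.79e-09), and Chtf8, of an alternative clamp loader, fell by 0.64 on the log2 scale (adjusted p = 5.34e-09). Dna2, a nuclease of the lagging strand, followed the order of Prim1, with 13 CPM in vehicle, 8.85 in cisplatin and 17.3 in co-treated mice (0.96 with KW6002 added, adjusted p = 2.53e-08). Rnaseh2a, of the enzyme that removes RNA from DNA, was 0.74 higher with cisplatin and 0.74 lower again.

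**Figure D5:**
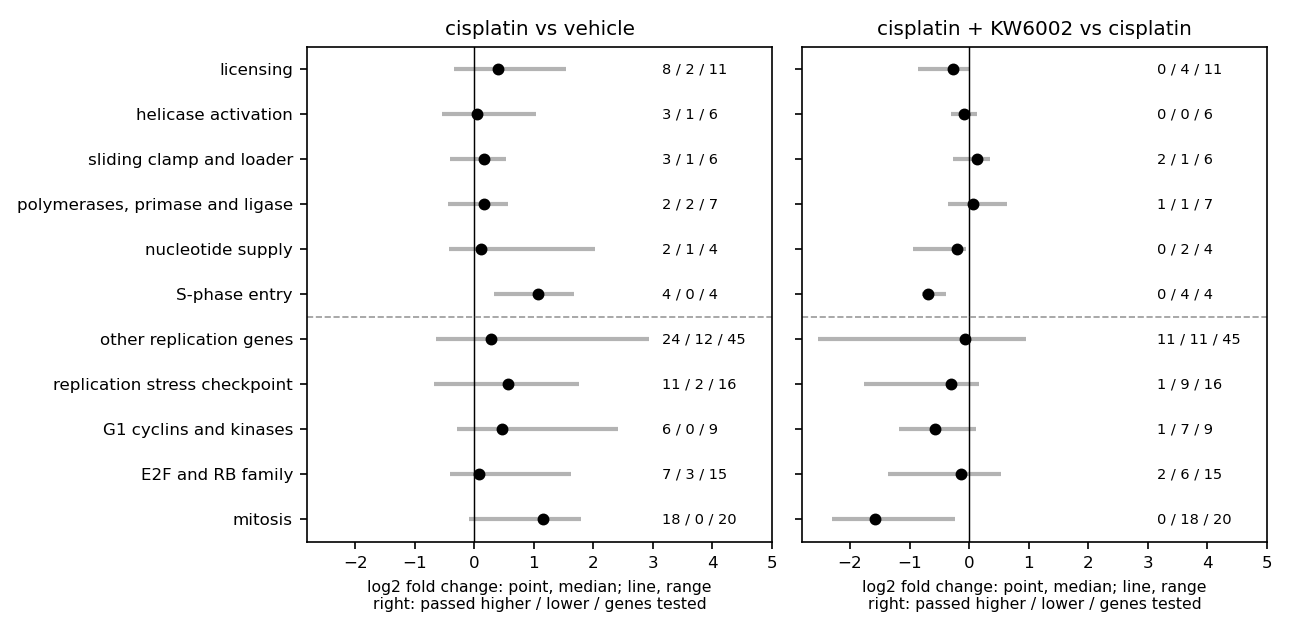
Points give the median and lines the range of log2 fold changes for the 6 roles of the 38 genes (above the dashed line) and for 5 other lists (below it), with cisplatin against vehicle at left and co-treated against cisplatin mice at right. Numbers give genes that passed as higher, as lower, and genes tested. S-phase entry (median 1.07 and -0.69) and mitosis (1.15 and -1.58) lie farthest from 0.

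Genes that control S-phase entry moved in part with the members. For the counts that follow, 34.6% of all genes rose and 35.9% fell with cisplatin, and 28.6% rose and 27.2% fell with KW6002 added. Cdkn1a, the p53-driven inhibitor of cyclin kinases, rose from 11.1 CPM with vehicle to 880.8 with cisplatin (log2 fold change 6.32, adjusted p = 3.21e-15) and was 620.4 in co-treated mice (-0.51 against cisplatin, adjusted p = 0.0321). Of the 7 CDK inhibitors 6 were tested, of which 3 rose and 1 fell with cisplatin, and Cdkn2b rose by 2.15 and Cdkn2d by 0.43. Of 9 genes for G1 cyclins, kinases and Myc, 6 rose and 0 fell with cisplatin and 7 fell with KW6002 added. Myc rose by 2.42 (adjusted p = 1.01e-09), Cdk2 by 0.56 and Cdk6 by 0.84, and Ccna2, the S-phase cyclin A, rose by 0.83 and fell by 1.17 with KW6002 added (adjusted p = 0.000133). Ccnd1 did not pass with cisplatin (-0.28, adjusted p = 0.25) and was lower in co-treated mice (-0.57, adjusted p = 0.022), where Ccnd2 was lower too (-0.98, adjusted p = 3.75e-07). In the E2F and RB family 7 of 15 rose and 3 fell with cisplatin, with the smallest adjusted p for Rb1 (0.77, adjusted p = 7.88e-12), and 2 rose and 6 fell with KW6002 added, Tfdp2 upward by 0.53 (adjusted p = 2.47e-08).

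Of 16 genes of the replication stress checkpoint, 11 rose and 2 fell with cisplatin (median 0.57), and 1 rose and 9 fell with KW6002 added (median -0.30). Over all genes the shares were 34.6% higher and 35.9% lower with cisplatin, and 28.6% and 27.2% with KW6002 added. Hus1, of the checkpoint clamp, fell by 0.68 (adjusted p = 1.15e-09), while Wee1, the kinase that restrains Cdk1, rose by 0.80 (adjusted p = 2.15e-08) and Rad1 rose by 0.60. Fancd2, of the Fanconi pathway for crosslinks, went from 0.667 to 1.39 and to 0.543 CPM, and adding KW6002 moved it by -1.35 on the log2 scale (adjusted p = 5.45e-05). Of 11 genes listed for the control of licensing by protein degradation, 5 rose and 5 fell with cisplatin, beside the same 34.6% and 35.9% of all genes. Dtl, the receptor that targets Cdt1, was 1.35 lower with KW6002 added on the log2 scale (adjusted p = 0.000367), and Fbxw7, which targets cyclin E, rose by 0.72 with cisplatin (adjusted p = 4.59e-08), whereas Skp2 fell by 0.71 (adjusted p = 3.83e-06).

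With KW6002 added, proximal tubule markers rose in 9 of 10 genes and injured tubule markers fell in 8 of 10, and fibroblast markers fell in 5 of 6. Thick ascending limb markers rose in 3 of 4 genes, and distal tubule and collecting duct markers in 5 of 7. Among all genes 28.6% rose and 27.2% fell. The summed proximal tubule level in co-treated mice was 8243.1 to 12721.9 CPM, between the cisplatin and vehicle ranges. Fat markers fell in 4 of 6 genes and ranged widely among vehicle mice, from 148.4 to 1309.2 CPM in sum. Of 38 members, 12 overlap a gene on the other strand, Rfc2 (Lat2), Rfc5 (Wsb2), Orc1 (Gm12743), Gins2 (Gse1), Ccne2 (Ints8), Tk1 (Afmid), Mcm7 (Cops6 and Ap4m1) and Rfc4 (Eif4a2) among them, and whether counting used the strand is not stated, so reads of these pairs cannot be told apart with certainty.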

How the data were processed

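Kidney RNA of 22 mice was sequenced, and the authors deposited counts, whole numbers of reads per Ensembl gene and library, without normalization. Per the labels, libraries were stranded mRNA libraries, read with bcl2fastq 2.17.1.14, mapped with STAR to mm10 and counted with HTSeq 0.6.1p1, where reads of genes that overlap may be lost or shared, since the strand setting is not stated. Another 66 columns had no sample and were not used. Totals ran from 26471762 to 40510754 counts (median 32721214.5), so a low gene such as Orc1 rests on few reads. Groups came from the labels.

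Genes with at least 10 counts at the median library size (0.306 CPM) in 5 libraries and 15 counts in all were kept, which left 17131 genes with 99.95% of the counts. Counts were fitted with edgeR 4.0.16 in R 4.3.3 (TMM, 1 mean per group, quasi-likelihood F tests, Benjamini-Hochberg adjustment over all 17131 genes, threshold 0.05). Each label gives 1 mouse number, and p-values measure the spread between these libraries. The fit was first tested on simulated counts. Positions and overlaps came from GENCODE M21 (mm10). Promoter sequences came from RefSeq (GRCm38.p6).

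All 38 members are named. Values per library are given for the 2 genes of each role with the largest change in each of cisplatin against vehicle and co-treated against cisplatin, and for members that passed against the direction of most of their role. From each other list at most 3 genes per comparison with the smallest adjusted p are named, besides Cdkn1a, Rrm2b, Mki67, Top2a, Ccna2 and Ccnd1. Of these, 1 gene that this rule selects is not reported here. The members and lists were chosen with earlier results of these data known. Alternatives were DESeq2 1.42.0, relative log expression factors, library size only, 2 other filters, fits of 1 comparison at a time, blocking on replicate, the 300s and 500s as a covariate or the 500s alone, stricter thresholds and each library left out. Ranges over all alternatives leave out the stricter thresholds.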

Additional observations from a re-analysis of the deposited data

Results flagged for a closer look

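In 9 of 152 gene and group pairs, 1 library stood apart from the rest of its group by Dixon's test, which chance alone gives in about 1 in 20 groups. These libraries were cisplatin replicate 4 for Gmnn (6.98 CPM), cisplatin replicate 5 for Mcm3 (8.1 CPM) and Tyms (17.1 CPM), and cisplatin replicate 1 for Mcm6 (19.6 CPM). Co-treated replicate 1 stood apart for Mcm6 (19.5 CPM) and Rfc3 (4.7 CPM), vehicle replicate 2 for Mcm10 (10.4 CPM) and Gins2 (3.41 CPM), and vehicle replicate 1 for Cdc45 (1.17 CPM).

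The effect of KW6002 differed between mice with and without cisplatin in 7 of 38 genes by edgeR's test of the difference. Of all genes tested, 22.8% had a more positive and 19.9% a more negative effect with cisplatin, so such a difference was not particular to the members. On the log2 scale the difference was 0.79 for Prim1, 0.37 for Rfc2, 0.33 for Rfc5, -0.21 for Pcna, -0.43 for Mcm2, -0.60 for Ccne2 and -0.94 for Rrm2.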

How the results depend on the processing

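Apart from the stricter thresholds, 20 of the 29 members that passed with cisplatin did so under every alternative that tested them. For co-treated against cisplatin mice 9 of 15 did. With a stricter call, beyond 1 on the log2 scale and adjusted p under 0.01, members higher and lower numbered 6 and 0 with cisplatin, 0 and 0 for co-treated against cisplatin, 1 and 0 for co-treated against vehicle, and 0 and 0 for the difference in the KW6002 effect. Tested against a log2 fold change of 0.5, they numbered 7 and 0, 0 and 1, 2 and 0, and 0 and 0. Scaling by library size left 1 lower with cisplatin, against 24.8% of all genes (member median 0.54). For co-treated against vehicle it gave 20 higher and 3 lower, against 43.2% and 20.6% of all genes (member median 0.31). It also turned the sign of Rfc1 to 0.17 and of Rfc5 to 0.19 with cisplatin. With no filter, 2 members had a more negative KW6002 effect with cisplatin. With the number series as a covariate, the median was 0.41 with cisplatin, and 7 had a more negative KW6002 effect. Co-treated against vehicle mice then had 20 higher, against 28.5% of all genes (member median 0.37). The mice of the 500s alone gave 4 lower with cisplatin, against 31.7% of all genes (member median 0.45). They gave 2 lower for co-treated against vehicle, against 23.7% (member median 0.35), and a median of 0.02 for KW6002 alone. The cause of these shifts was not tested.

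Leaving out 1 library at a time gave 19 (without vehicle replicate 4 or 5) to 23 higher and 6 to 8 lower with cisplatin (median 0.26 to 0.38), 3 to 4 higher and 8 (without cisplatin replicate 1) to 13 lower for co-treated against cisplatin (-0.14 to -0.09), and 10 to 14 higher and 5 to 6 lower for co-treated against vehicle (0.13 to 0.22). KW6002 alone stayed at 0 (median -0.11 to -0.02), and the KW6002 effect was more positive for 3 and more negative for 2 to 5 (-0.14 to -0.08), the 2 without vehicle replicate 5 or without cisplatin replicate 3. Whether the replicate numbers pair the mice was not settled. Of 31 same-numbered pairs of libraries, 7 had deviations correlated above 0.1, with 0.405 for replicate 1 of vehicle and KW6002. Among libraries of other groups, 8 of 22 libraries correlated best with their own number, a count with no chance level beside it. With a replicate block, 23 were higher and 7 lower with cisplatin and 3 and 11 for co-treated against cisplatin mice. DESeq2 gave 22 and 7, and 3 and 12.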
